A study of Mus musculus with 16 samples.

Results

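Transcripts of 38 mitosis and G2/M genes were followed in whole skin of mice treated with SDS (sodium dodecyl sulfate, a detergent and skin irritant), with and without Topsym. The genes were chosen by name as components of cell division, with earlier results of these data known, so the list is not independent of the data. All 38 were found among the 32078 genes of the deposited table. All 38 also passed the filter on low values, which kept 19189 genes. The 16 libraries form 8 groups of 2: SDS with Topsym at days 0, 1, 3 and 5, and SDS alone at days 0, 1, 3 and 5. The mice were 7 weeks old, and the sources used here give neither strain nor sex nor the start of each treatment. The labels name a topical treatment of 4 days, while the titles run to day 5. They also do not say what was applied to the Topsym group of day 0. Topsym is known, as background and not from the labels, as a preparation of fluocinonide, a strong topical glucocorticoid. Every title names SDS, at day 0 as at days 1, 3 and 5, and whether SDS had been applied by day 0 is not given. In a change from day 0, SDS cannot be told apart from time, from the animals or from the piece of skin taken. The labels do not tie the 2 libraries of a group to different animals, and p-values cover only the spread between such libraries, which may be technical.

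A cell that has copied its DNA passes through G2, in which the kinase Cdk1 and its cyclins build up, and then divides in mitosis. Kinetochores attach the chromosomes to the spindle, the spindle checkpoint delays their separation until attachment is complete, and the ligase APC/C with its activator Cdc20 then marks cyclin B for destruction. In many cell types the genes for these proteins are transcribed late in the cycle: the DREAM complex keeps them silent in resting cells through a short element at the start site, the CHR, while B-Myb and FoxM1 act through the same MuvB core in G2, often with NF-Y at CCAAT boxes. In skin, dividing cells lie mostly in the basal layer of the epidermis and in the matrix of growing hair follicles.

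The promoter windows of RefSeq (GRCm38.p6, from 250 bases before to 50 bases after the start site, 300 bases in all) were searched because the CHR and the CCAAT box are the elements named for this class of genes. By symbol, 34 of the 38 members matched a window, and Ccna2, Aurkb, Kif20a and Tpx2 did not. The 8 windows below belong to the member with a window and the highest mean level in each of 8 roles. The role of mitotic kinases is not among them, and a window does not stand for the other members of its role. Each runs 5′ to 3′ on the strand of its gene, and capitals mark CHR letters (TTTGAA, or TTCAAA where the opposite strand carries them) and CCAAT letters (CCAAT, or ATTGG where the opposite strand carries them). The window of Cdk1 lies at chr10:69352863-69353162, minus strand, that of Cdc20 at chr4:118437294-118437593, minus strand, that of Cenpa at chr5:30666636-30666935, plus strand and that of Birc5 at chr11:117848987-117849286, plus strand. The window of Kif11 lies at chr19:37376132-37376431, plus strand, that of Anln at chr9:22389157-22389456, minus strand, that of Mki67 at chr7:135716330-135716629, minus strand and that of Cdca3 at chr6:124829926-124830225, plus strand.
Cdk1: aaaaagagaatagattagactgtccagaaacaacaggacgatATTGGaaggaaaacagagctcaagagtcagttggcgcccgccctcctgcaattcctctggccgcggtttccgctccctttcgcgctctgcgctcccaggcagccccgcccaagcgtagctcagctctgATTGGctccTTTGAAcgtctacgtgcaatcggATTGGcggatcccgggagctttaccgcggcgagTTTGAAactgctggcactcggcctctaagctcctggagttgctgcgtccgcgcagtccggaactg
Cdc20: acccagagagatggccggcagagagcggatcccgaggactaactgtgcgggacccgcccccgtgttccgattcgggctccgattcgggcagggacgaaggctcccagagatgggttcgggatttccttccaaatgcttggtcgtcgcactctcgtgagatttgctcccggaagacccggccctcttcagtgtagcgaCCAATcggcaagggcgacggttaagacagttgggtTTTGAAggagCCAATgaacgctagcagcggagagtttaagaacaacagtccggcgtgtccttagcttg
Cenpa: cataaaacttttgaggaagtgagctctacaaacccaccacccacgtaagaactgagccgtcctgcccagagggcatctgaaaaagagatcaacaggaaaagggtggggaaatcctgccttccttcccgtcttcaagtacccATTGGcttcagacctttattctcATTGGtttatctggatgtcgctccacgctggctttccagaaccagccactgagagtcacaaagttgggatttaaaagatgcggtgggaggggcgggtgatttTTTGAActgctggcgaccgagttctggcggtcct
Birc5: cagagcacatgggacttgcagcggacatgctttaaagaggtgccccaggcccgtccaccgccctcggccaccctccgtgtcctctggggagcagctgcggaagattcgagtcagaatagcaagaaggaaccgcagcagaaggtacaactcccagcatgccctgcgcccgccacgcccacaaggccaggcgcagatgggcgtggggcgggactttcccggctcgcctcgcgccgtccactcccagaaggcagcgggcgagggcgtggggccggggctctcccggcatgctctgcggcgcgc
Kif11: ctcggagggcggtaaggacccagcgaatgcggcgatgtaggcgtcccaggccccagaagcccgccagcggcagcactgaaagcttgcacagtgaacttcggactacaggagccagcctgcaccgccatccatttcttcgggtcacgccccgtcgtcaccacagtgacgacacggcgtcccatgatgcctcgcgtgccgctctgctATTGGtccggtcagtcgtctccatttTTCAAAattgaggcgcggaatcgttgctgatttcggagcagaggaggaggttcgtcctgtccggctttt
Anln: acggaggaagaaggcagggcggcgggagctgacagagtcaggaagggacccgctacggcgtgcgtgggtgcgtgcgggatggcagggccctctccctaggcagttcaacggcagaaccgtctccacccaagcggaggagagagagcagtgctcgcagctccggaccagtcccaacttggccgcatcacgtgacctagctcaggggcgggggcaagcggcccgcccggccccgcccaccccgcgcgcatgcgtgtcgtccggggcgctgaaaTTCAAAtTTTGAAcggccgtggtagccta
Mki67: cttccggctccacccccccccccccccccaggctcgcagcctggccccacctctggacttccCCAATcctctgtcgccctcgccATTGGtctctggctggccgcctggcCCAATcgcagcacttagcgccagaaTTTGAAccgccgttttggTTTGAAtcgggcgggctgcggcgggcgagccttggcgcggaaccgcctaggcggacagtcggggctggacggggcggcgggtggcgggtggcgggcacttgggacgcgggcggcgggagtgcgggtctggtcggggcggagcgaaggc
Cdca3: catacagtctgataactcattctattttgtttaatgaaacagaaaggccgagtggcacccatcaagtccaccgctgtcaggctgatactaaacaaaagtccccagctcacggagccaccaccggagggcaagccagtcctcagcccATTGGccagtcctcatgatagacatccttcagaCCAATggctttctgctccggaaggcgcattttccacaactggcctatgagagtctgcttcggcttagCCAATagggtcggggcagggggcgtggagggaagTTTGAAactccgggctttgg

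Windows had the same length, were searched on both strands and were counted by gene symbol. A symbol with more than 1 window counted once, as a match if any of them held the letters. Shares of all windows are therefore shares of all 27025 symbols. CHR letters stood in 26 of the 34 windows (76.5%), against 20.2% of all windows so counted. Within 50 bases of the start site they stood in 24 of 34 (70.6%), against 5.72% of all windows. CCAAT letters stood in 27 of 34 (79.4%), against 41.1% of all windows, 37 of 55 (67.3%) of other mitosis genes and 20 of 32 (62.5%) of DNA replication and G1/S genes, and both motifs together in 23 of 34 (67.6%), against 8.97% of all windows and 23 of 55 (41.8%) of other mitosis genes. Cdk1 carries CHR letters 71 and 15 bases before the start and CCAAT letters 208, 80 and 48 bases before it. In Cdc20 the CHR letters begin 18 bases before the start, between CCAAT letters at 53 and 8 bases before it. Anln carries CHR letters on both strands side by side, 21 and 28 bases after the start, and no CCAAT letters, and Mki67 carries its CHR letters 116 and 98 bases before the annotated start. No CHR and no CCAAT letters were found in the windows of 4 members, Birc5, Mad2l1, Nuf2 and Nusap1, which says only that these letters are not in these 300 bases. Letters of an E2F-like motif, TTTNNCGC, stood in 2 of 34 windows (Cdk1 and Racgap1), against 5.93% of all windows and 16 of 32 windows (50%) of DNA replication and G1/S genes. Other mitosis genes carried the E2F-like letters in 14 of 55 windows (25.5%). CHR letters stood in 5 of those 32 windows, and in 30 of 55 windows of other mitosis genes. TATAAA letters stood in 1 of the 34 windows, that of Kif2c, against 15.7% of all windows. A match describes letters, and no binding was measured.

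**Figure D1:**
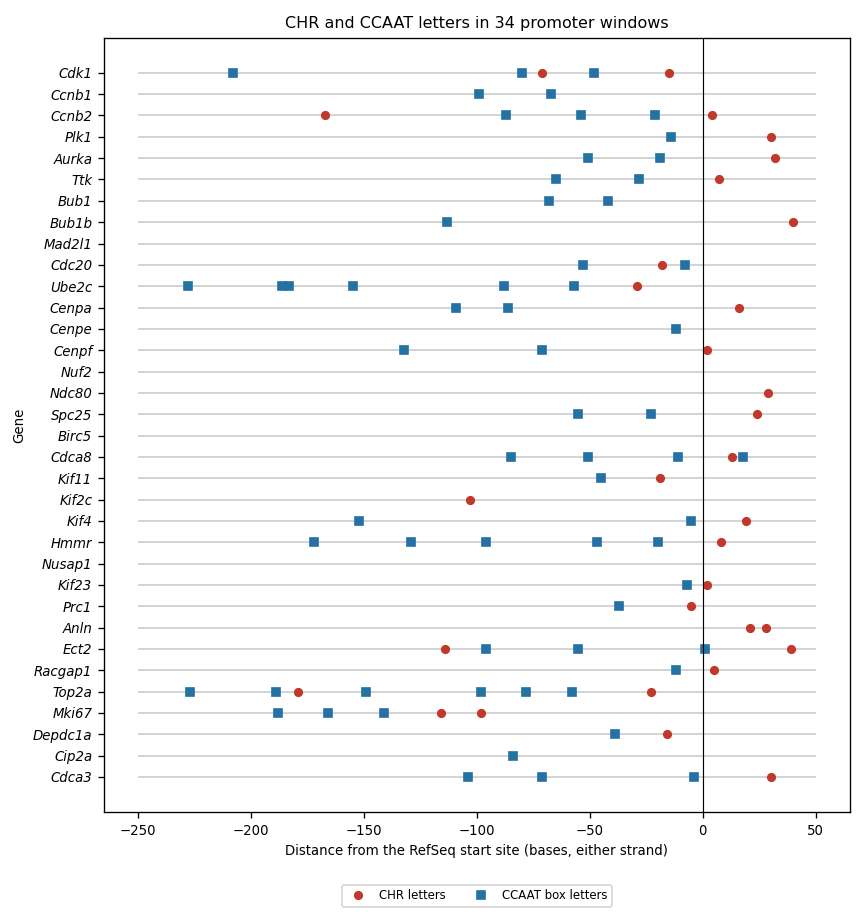
Positions of CHR letters (red circles) and CCAAT letters (blue squares) in the 34 promoter windows, 1 gene a row; the x axis is the distance in bases from the RefSeq start site, from 250 before to 50 after. CHR letters gather around the start site in 24 of the 34 windows, and the rows of Birc5, Mad2l1, Nuf2 and Nusap1 are empty.

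The deposited values are read counts divided by a size factor of each library, and are given here as normalised reads. Libraries held 15199656 to 32066246 recovered reads. The day 5 libraries stood apart: 19885 to 20774 genes were detected in them, against 22875 to 23740 at the other days, and their 10 highest genes took 10.3 to 14.8% of the reads, against 4.91 to 7.06%. Within every group the 2 libraries differed by more than counting noise (chi-square per degree of freedom 3.13 to 6.98), so none was taken as a repeat of another. A change is given as the difference of log2(normalised reads + 1) and its standard error as SE, and a gene is called higher or lower where limma's p, adjusted over all 19189 genes of the comparison, is below 0.05. Markers of keratinocytes, fibroblasts, endothelium and macrophages were above 0 in every group. In bulk tissue, fewer cells of a type and less RNA per cell cannot be told apart. The sources used here do not say if reads were counted by strand. In 9 members some exon bases are shared with a gene on the opposite strand, from 2.84% in Cdc20 (with Elovl1) to 29.3% in Kif20a (with Cdc23), and their reads are uncertain there. Ube2c shares 22.8% of its exon bases with Tnnc2, a troponin gene of muscle, Kif4 15.1% with Pdzd11, Ccna2 12.5% with Exosc9 and Prc1 11.1% with Rccd1.

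Between days 1 and 3 the change was higher with Topsym than in SDS alone in all 38 genes (beside 16.7% of all genes tested), by a test of that difference given below. Each member's level was set against its own mean over the 16 libraries, on the log2 scale, and the median over the members was taken in each library. With Topsym this median was -0.15 and -0.14 at day 0, -0.82 and -0.94 at day 1, 0.93 and 0.95 at day 3 and 1.53 and 1.55 at day 5. In SDS alone it was -0.46 and -0.53 at day 0, -0.82 and -0.87 at day 1, -0.97 and -0.90 at day 3 and 0.81 and 0.82 at day 5. The SDS with Topsym libraries were therefore already above the members' mean at day 3, when those of SDS alone were as low as at day 1. By group mean, 33 members were highest at day 5 with Topsym and 5 (Anln, Ect2, Hmmr, Depdc1a and Cip2a) at day 3 with Topsym. With reads scaled by library totals these counts became 22 and 16. The lowest group mean was that of day 3 of SDS alone for 15 members, day 1 with Topsym for 13, day 0 of SDS alone for 6 and day 1 of SDS alone for 4. At day 3 with Topsym 27 members stood above day 5 of SDS alone by group mean, and 34 did with scaling by library totals.

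**Figure D2:**
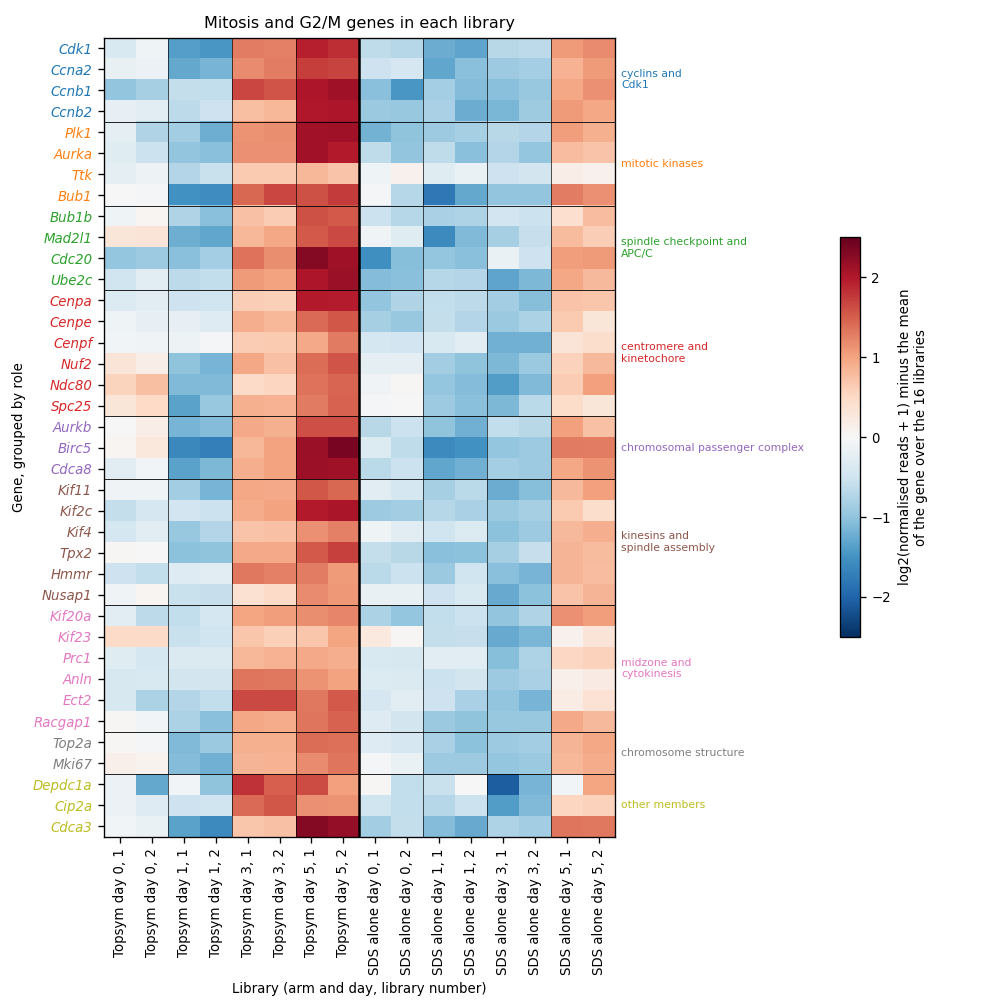
Level of each of the 38 genes (rows, grouped by role) in each of the 16 libraries (columns), as log2(normalised reads + 1) minus the mean of the gene over the 16 libraries; red is above that mean and blue below it. With Topsym the columns turn red at day 3, while those of SDS alone are mostly blue until day 3 and red at day 5.

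Levels were also divided by the kilobases of all annotated exons of a gene, merged. This length can exceed that of the transcripts present, so it ranks different genes only roughly. On this scale Cdc20 was the highest member at day 5 with Topsym, at 1946 normalised reads per kilobase. Cdca3 followed at 1196, Ccnb2 at 1150.0 and Ube2c at 1039. The lowest were Depdc1a at 35.2, Cenpf at 68.2 and Ndc80 at 74.8 per kilobase.

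Among the cyclins and their kinase, Cdk1 (chromosome 10, 69335146 to 69352938 in GENCODE M21, mm10) is the catalytic subunit that starts mitosis. With Topsym it had 454 and 554 normalised reads at day 0, 227 and 217 at day 1, 1436 and 1424 at day 3 and 2281 and 2138 at day 5. In SDS alone it had 381 and 361 normalised reads at day 0, 252 and 238 at day 1, 367 and 376 at day 3 and 1243 and 1345 at day 5. The libraries with Topsym were above those of SDS alone at days 0, 3 and 5 and below them at day 1, with no overlap at any day. Ccnb1 (chromosome 13, 100778650 to 100786570), cyclin B1, carries Cdk1 activity into mitosis. With Topsym its level was 169 and 190.2 normalised reads at day 0, 222 and 220.4 at day 1, 1079 and 999 at day 3 and 1371 and 1460.2 at day 5. In SDS alone its level was 162 and 122 normalised reads at day 0, 186 and 158 at day 1, 162 and 175 at day 3 and 662 and 743 at day 5. Unlike Cdk1, Ccnb1 had no call at day 1 in either arm, and its SDS alone libraries of day 1 overlapped those of day 0 and those of day 3. Ccnb2 (chromosome 9, 70407692 to 70421547), cyclin B2, stood at 376 and 356 normalised reads at day 0, 277 and 304 at day 1, 734 and 771 at day 3 and 1751 and 1770.1 at day 5 with Topsym. In SDS alone Ccnb2 stood at 228 and 224 normalised reads at day 0, 247 and 185 at day 1, 196 and 234 at day 3 and 918 and 847 at day 5. Its SDS alone libraries of days 0, 1 and 3 overlapped, while those with Topsym were higher than SDS alone at each day without overlap. Ccna2, cyclin A2, which acts in both S phase and G2, ranged from 256 to 2085 normalised reads over the 16 libraries.

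Of the mitotic kinases, Plk1 (chromosome 7, 122159439 to 122169873), polo-like kinase, drives centrosome maturation and mitotic entry. With Topsym Plk1 had 358 and 251 normalised reads at day 0, 231 and 182 at day 1, 928 and 952 at day 3 and 1835 and 1850.0 at day 5. In SDS alone Plk1 had 187 and 210.0 normalised reads at day 0, 226 and 238 at day 1, 264 and 256 at day 3 and 882 and 794 at day 5. The arms overlapped at day 1 and were apart at days 0, 3 and 5, with Topsym higher. Cdc20 (chromosome 4, 118432901 to 118437352) is the activator of APC/C. With Topsym there were 403 and 417 normalised reads at day 0, 382 and 435 at day 1, 2021 and 1766 at day 3 and 3848 and 3420.4 at day 5 for Cdc20. In SDS alone there were 272 and 377 normalised reads at day 0, 402 and 379 at day 1, 699 and 545 at day 3 and 1629 and 1638 at day 5. Cdc20 is thus a member without a fall at day 1 in either arm, and its SDS alone libraries at day 3 were above those of day 1. Cenpa (chromosome 5, 30666777 to 30674830) encodes the histone H3 variant that marks centromeres. With Topsym Cenpa was at 425 and 441 normalised reads at day 0, 373 and 383 at day 1, 828 and 817 at day 3 and 2126 and 2096 at day 5. In SDS alone Cenpa was at 270.4 and 319.7 normalised reads at day 0, 349 and 342 at day 1, 295 and 257 at day 3 and 881 and 874 at day 5. Its day 5 libraries of SDS alone were above the day 3 libraries with Topsym.

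Birc5 (chromosome 11, 117849251 to 117855743), survivin, is a subunit of the chromosomal passenger complex that corrects attachments and guides cytokinesis. With Topsym Birc5 measured 532 and 618 normalised reads at day 0, 167 and 157 at day 1, 909 and 1036 at day 3 and 2291 and 2647 at day 5. In SDS alone Birc5 measured 404 and 331 normalised reads at day 0, 169 and 179.6 at day 1, 262 and 274 at day 3 and 1265 and 1253 at day 5. Birc5 fell at day 1 in both arms without overlap with day 0, and the day 5 libraries with Topsym were the highest of the 16. Kif20a (chromosome 18, 34624613 to 34633277) encodes a kinesin of the central spindle. With Topsym Kif20a came to 238 and 183 normalised reads at day 0, 188 and 213 at day 1, 575 and 593 at day 3 and 641 and 674 at day 5. In SDS alone Kif20a came to 166 and 146 normalised reads at day 0, 188 and 198 at day 1, 146 and 171 at day 3 and 635 and 598 at day 5. At day 5 its libraries with Topsym (641 and 674) were only just above those of SDS alone (635 and 598), and the change had no call. Cdc23 shares exon bases with Kif20a, and the part of Cdc23 in these reads was not tested.

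Top2a (chromosome 11, 98992943 to 99024189), topoisomerase II alpha, untangles sister chromatids. With Topsym Top2a gave 2286 and 2190.4 normalised reads at day 0, 1042 and 1177 at day 1, 4157 and 4123 at day 3 and 5924 and 5837 at day 5. In SDS alone Top2a gave 1797 and 1677 normalised reads at day 0, 1271 and 1104 at day 1, 1199.6 and 1219.8 at day 3 and 4053 and 4379 at day 5. At day 1 the arms overlapped. Mki67 (chromosome 7, 135689784 to 135716361), the Ki-67 protein of the chromosome surface, is used as a marker of cycling cells. With Topsym Mki67 gave 3169 and 3048 normalised reads at day 0, 1355 and 1259.6 at day 1, 5225 and 5240.3 at day 3 and 6523 and 7322 at day 5. In SDS alone Mki67 gave 2811 and 2565 normalised reads at day 0, 1538 and 1534 at day 1, 1467 and 1522 at day 3 and 5126 and 5474 at day 5. Its day 3 libraries with Topsym lay within the range of its day 5 libraries in SDS alone, 2 days earlier.

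**Figure D3:**
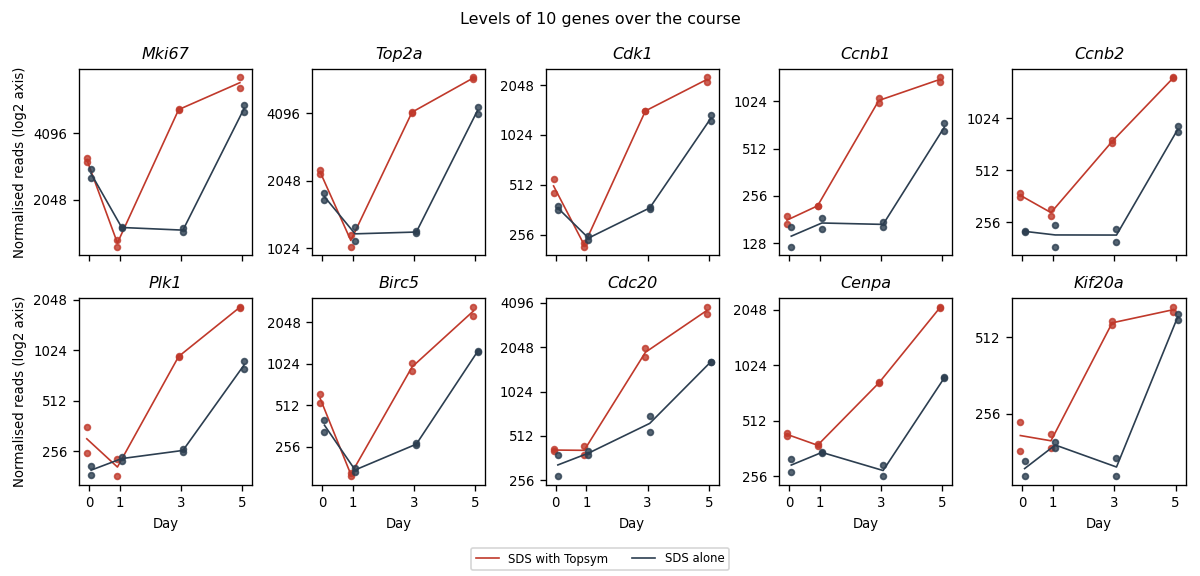
Normalised reads (log2 axis) of 10 of the genes at days 0, 1, 3 and 5; points are libraries, lines join group means, SDS with Topsym is red and SDS alone dark. At day 3 every red point lies above both dark points of its panel, and Mki67, Top2a, Cdk1 and Birc5 dip at day 1 in both arms, while Ccnb1, Cdc20, Cenpa and Kif20a had no call there.

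Day 1 against day 0 compares the first day of the course with its start. With Topsym 25 of 38 members fell and 0 rose, beside 20.5% of all genes called lower and 20.3% called higher; the median change was -0.57 log2, against -0.03 over all genes. In SDS alone 17 fell and 1 rose, beside 13.5% lower and 12.8% higher among all genes, with a median of -0.25 against -0.03. The 17 members that fell in SDS alone all fell with Topsym too, 7 more (Aurka, Bub1b, Ccnb2, Kif4, Nusap1, Plk1 and Ttk) fell with Topsym and had no call in SDS alone, and 13 had no call in either arm. Ube2c, the remaining member, is described below. Among the 7, the Ccnb2 call was lost without any 1 of the 4 libraries, at adjusted p of 0.0711 to 0.232, and the Plk1 call without the second library of day 1 or the first of day 0, at adjusted p of 0.111 to 0.143.

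The members that fell included genes of the attachment machinery and the passenger complex. All 3 passenger members, Aurkb, Birc5 and Cdca8, fell in both arms. Birc5 fell by 1.82 on the log2 scale with Topsym (167 and 157 normalised reads at day 1, against 532 and 618 at day 0; SE 0.12, limma adjusted p = 2.00e-09). In SDS alone Birc5 fell by 1.07 (limma adjusted p = 2.55e-06). Ndc80, a subunit of the kinetochore complex that grips microtubules, had 84.2 and 84.3 normalised reads at day 1 with Topsym, against 268 and 309 at day 0 (log2 -1.76, SE 0.17, limma adjusted p = 3.21e-07). Its partners Nuf2 and Spc25 also fell in both arms, at -1.32 and -1.55 with Topsym and -0.70 and -0.94 in SDS alone. Mad2l1, the checkpoint protein that restrains Cdc20, had 136 and 128 at day 1 with Topsym, against 393 and 397 at day 0 (log2 -1.57, SE 0.15, limma adjusted p = 3.26e-07). In SDS alone Mad2l1 had 106 and 148 at day 1, against 300.4 and 258 at day 0 (log2 -1.15, SE 0.15, limma adjusted p = 2.33e-05). Bub1, a checkpoint kinase of the kinetochore, was the largest fall in SDS alone, with 37.9 and 53.7 at day 1 against 130.4 and 80.9 at day 0 (log2 -1.17, SE 0.23, limma adjusted p = 0.00103). With only the libraries of those groups in the fit its adjusted p was 0.0821. Mki67, Top2a, Cdk1, Ccna2, Kif11, Kif23, Racgap1, Tpx2 and Cdca3 complete the members that fell in both arms, between -1.35 and -0.89 with Topsym and between -0.81 and -0.39 in SDS alone. The libraries of the 2 days did not overlap for Birc5, Ndc80, Mad2l1 or Bub1 in either arm.

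The 13 members with no call at day 1 in either arm were Anln, Ccnb1, Cdc20, Cenpa, Cenpe, Cenpf, Cip2a, Depdc1a, Ect2, Hmmr, Kif20a, Kif2c and Prc1. Their changes with Topsym ran from -0.27 (Cip2a) to 0.30 (Ccnb1) log2, and in SDS alone from -0.32 (Ect2) to 0.31 (Kif20a). A missed threshold does not show that they kept their level: Depdc1a in particular has an SE of 0.50. Ube2c, the ubiquitin-conjugating enzyme of APC/C, was the only member called higher in SDS alone, with 386 and 383 at day 1 against 297 and 308 at day 0 (log2 0.35, SE 0.10, limma adjusted p = 0.0151). That call was lost without either library of day 1 or the first of day 0, at adjusted p of 0.0629 to 0.0859, and the count of 1 higher member was 3 without the second library of day 0. With Topsym Ube2c fell, to 403 and 411 at day 1 against 448 and 529 at day 0 (log2 -0.26, SE 0.10, limma adjusted p = 0.0459). Muscle markers, a list that does not hold Tnnc2 itself, summed to 414712 to 421582 at day 1 with Topsym against 128869.7 to 131839 at day 0. In SDS alone they summed to 265619 to 272393 at day 1 against 363615 to 368139 at day 0. The part of Tnnc2, which shares exon bases with Ube2c, in the Ube2c values was not tested. CHR letters stood in 10 of the 14 windows of members that fell in both arms and in 9 of the 12 windows of members with no call in either arm.

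The difference between the arms in this first change was tested as an interaction. In 14 members the change was lower with Topsym and in 0 higher, beside 8.06% lower and 9.18% higher among all genes, and the median difference was -0.36 against -0.02. The count was 9 without the second library of day 1 with Topsym, or without the second of day 0 with Topsym. Cdca3 had the largest difference (log2 -0.91, SE 0.15, limma adjusted p = 0.000325): with Topsym it had 287 and 238 normalised reads at day 1 against 693 and 645 at day 0, and in SDS alone 339.9 and 303 at day 1 against 396 and 481 at day 0. Plk1 (log2 -0.77, limma adjusted p = 0.015) and Ndc80 (log2 -0.76, limma adjusted p = 0.0367) followed. The Plk1 call was lost without the second library of day 1 with Topsym, the first of day 0 with Topsym or the first of day 0 of SDS alone, at adjusted p of 0.066 to 0.0894. The Ndc80 call was lost without any 1 of the 8 libraries but the first of day 0 with Topsym, at adjusted p of 0.0556 to 0.13. The day 0 libraries with Topsym enter this difference, and they stood apart from those of SDS alone in several marker lists, given below for day 0. Among these is the list of the hair matrix and shaft, whose matrix cells divide. The markers of that list (11 genes, 10 of them in the table) summed to 349.5 to 366 at day 1 with Topsym against 12407 to 12509.9 at day 0, with 9 of 9 tested lower (median -3.24 log2), and to 414 to 435 at day 1 of SDS alone against 657 at day 0, with 1 lower. Krt71 and Krt73 were at 0 at day 1 with Topsym, Krt73 and Shh at day 1 of SDS alone and Krt73 at day 0 of SDS alone. The 12 basal keratinocyte markers summed to 274440.4 to 275959 at day 1 with Topsym against 336036 to 336345 at day 0, with 6 higher and 2 lower. In SDS alone they summed to 312416 to 329429.7 at day 1 against 313491 to 321167 at day 0, with 10 higher and 1 lower. The part of these markers in the result was not tested.

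**Figure D4:**
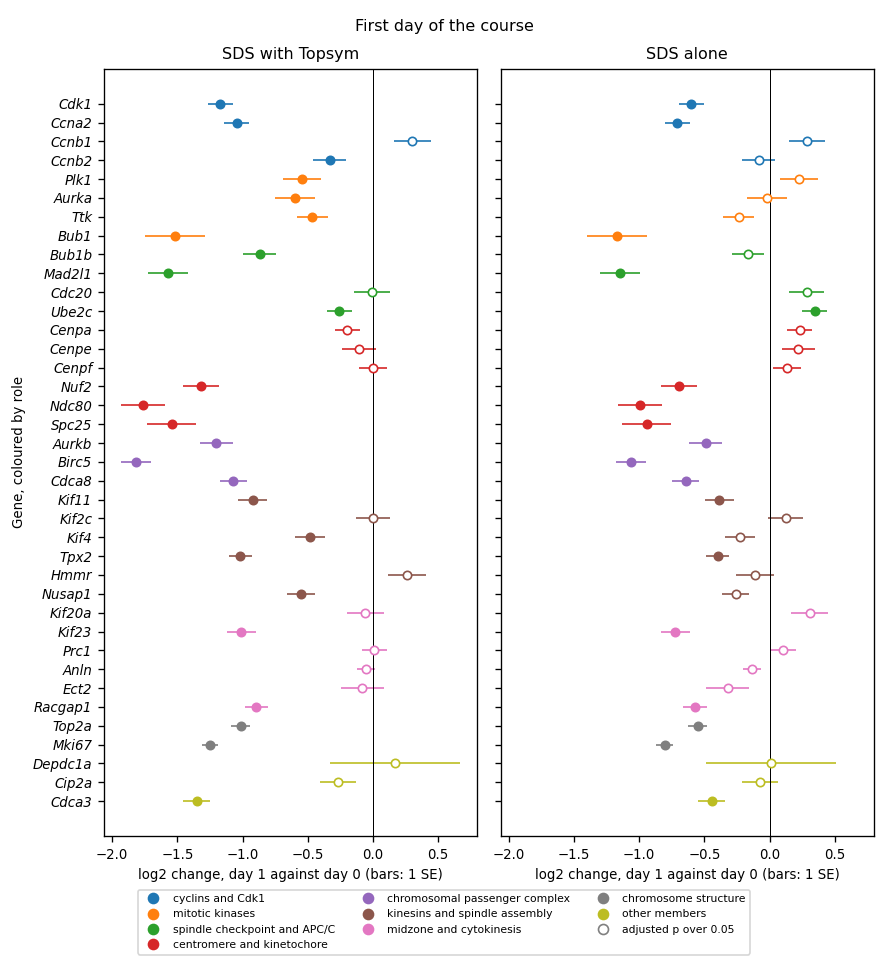
Log2 change of each of the 38 genes at day 1 against day 0, SDS with Topsym on the left and SDS alone on the right; bars are 1 SE, colours give the role, and open points have an adjusted p over 0.05. Passenger complex and Ndc80-complex genes lie left of 0 in both panels, while Ccnb1, Cdc20, Cenpf, Kif2c, Hmmr, Kif20a and Prc1 are open points in both.

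Between days 1 and 3 the 2 arms parted. With Topsym all 38 members rose (beside 22.1% of all genes called higher), with a median of 1.95 log2 against -0.06 over all genes, and both day 3 libraries were above both day 1 libraries for all 38, as for 35.5% of all genes. In SDS alone 9 rose and 12 fell, beside 23.6% higher and 18.6% lower among all genes, and the median was -0.06 against 0.04. The difference in change between the arms was called in all 38 members, each higher with Topsym (background 16.7%), with a median of 1.86 against -0.04. These comparisons share the day 1 and day 3 libraries with those within each arm.

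With Topsym the largest rise was that of Bub1, with 359 and 422 normalised reads at day 3 against 45.8 and 44.8 at day 1 (log2 3.07, SE 0.23, limma adjusted p = 1.10e-08). Cdk1 rose by 2.68 log2 and Birc5 by 2.58, from the values given above. The smallest rise was that of Cenpf, a large kinetochore protein, with 740.1 and 751 at day 3 against 442 and 465 at day 1 (log2 0.72, SE 0.11, limma adjusted p = 3.31e-05). Thus members that had fallen furthest at day 1 and members that had not fallen both rose. In SDS alone the 9 rises among the 38 members were near the share of all genes called higher between days 1 and 3, 23.6%. All 3 passenger members rose there, and none of the 6 genes of the midzone and cytokinesis did, 3 of them falling. With scaling by library totals these counts were 3 of 3 higher and 5 of 6 lower, and over all members 8 were higher and 15 lower. The difference between these small roles was not tested. Birc5 had 262 and 274 at day 3 against 169 and 179.6 at day 1 (log2 0.62, SE 0.12, limma adjusted p = 0.000341). Cdc20 had 699 and 545 at day 3 against 402 and 379 at day 1 (log2 0.66, SE 0.14, limma adjusted p = 0.000885), and Mad2l1 179.8 and 215 at day 3 against 106 and 148 at day 1 (log2 0.65, SE 0.15, limma adjusted p = 0.00234). These 3 were the largest rises, and their libraries of the 2 days did not overlap. Among the falls, Cenpf had 207 and 209 at day 3 against 368 and 399 at day 1 (log2 -0.88, SE 0.11, limma adjusted p = 4.06e-06). Nusap1, a spindle-associated protein, had 189.8 and 225 at day 3 against 319 and 350.0 at day 1 (log2 -0.69, SE 0.10, limma adjusted p = 4.52e-05). Depdc1a had 9.99 and 19.4 at day 3 against 30.1 and 44.5 at day 1 (log2 -1.33, SE 0.50, limma adjusted p = 0.0417), a call that was lost without its first day 3 library or either day 1 library, at adjusted p of 0.0598 to 0.292. The Mad2l1 call was lost without the first day 1 library, at an adjusted p of 0.0537. The 9 rises became 5 without the first day 3 library of SDS alone.

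Set against day 0, 36 of 38 members were higher at day 3 with Topsym and 0 lower (backgrounds 27% and 28.2%; median 1.04 against -0.04). Ccnb1 led at 2.53 log2 (limma adjusted p = 1.37e-10), followed by Depdc1a, with 159 and 127 at day 3 against 40.2 and 17.9 at day 0, and Ect2, the exchange factor that sets the cleavage furrow, with 711 and 706 at day 3 against 172 and 130.0 at day 0. Ndc80 and Kif23 were the 2 members without a call, at -0.16 and 0.16. In SDS alone 2 were higher and 23 lower at day 3 than at day 0 (backgrounds 25.4% and 24.2%; median -0.49 against -0.01). Kif23, a kinesin of the midzone, had 217 and 236 at day 3 against 619 and 529.7 at day 0 (log2 -1.33, SE 0.11, limma adjusted p = 3.28e-08). Ndc80 had 68.3 and 83.6 at day 3 against 172 and 185 at day 0 (log2 -1.23, SE 0.17, limma adjusted p = 1.29e-05), and Depdc1a 9.99 and 19.4 at day 3 against 45.8 and 28.8 at day 0 (log2 -1.32, SE 0.50, limma adjusted p = 0.0372). The 2 higher members were Cdc20 (log2 0.94, limma adjusted p = 2.19e-05) and Plk1 (log2 0.39, limma adjusted p = 0.0354). The Plk1 call was lost without either day 3 library or the first day 0 library, at adjusted p of 0.0904 to 0.197. The Depdc1a call was lost without the first library of day 3 or of day 0, at adjusted p of 0.225 to 0.271.

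At day 3 the libraries with Topsym were above those of SDS alone without overlap for all 38 members and for 34.2% of all genes, and all 38 were called higher, against 20.8% of all genes. The median change was 1.84 log2, against -0.04 over all genes, and the 38 changes ran from 1.14 (Ttk, a checkpoint kinase) to 3.26 (Depdc1a). Depdc1a had 159 and 127 normalised reads with Topsym, against 9.99 and 19.4 in SDS alone (log2 3.26, SE 0.50, limma adjusted p = 4.52e-05). Cip2a, an inhibitor of the phosphatase PP2A, had 661 and 735 with Topsym, against 93.2 and 116 in SDS alone (log2 2.73, SE 0.14, limma adjusted p = 1.04e-10). Ect2 had 711 and 706 with Topsym, against 113 and 100.1 in SDS alone (log2 2.72, SE 0.16, limma adjusted p = 8.63e-10). By role the median changes lay between 1.61 and 2.73. Anln, the cytokinesis scaffold anillin, had its highest levels of the study here, 2192 and 2175 with Topsym against 464 and 494 in SDS alone.

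The 12 basal keratinocyte markers, those of the layer that holds most dividing epidermal cells, were also higher: they summed to 635112 to 645553 normalised reads with Topsym at day 3, against 255619 to 259532 in SDS alone, with 10 higher and 0 lower (median 0.90 log2) and none at 0. The higher sum was not particular to that layer. The 10 suprabasal and stress keratinocyte markers summed to 581836 to 595758 with Topsym at day 3, against 297149 to 316780 in SDS alone. Neutrophil markers summed to 2585 to 2762 with Topsym against 62905 to 63404 in SDS alone (8 of 10 lower), macrophage markers to 26566 to 27069.7 with Topsym against 60340.2 to 62042 in SDS alone (8 of 8 lower) and fibroblast markers to 30672 to 31022 with Topsym against 98454 to 99574 in SDS alone (8 of 8 lower). Ly6g was at 0 with Topsym at day 3, as it was in SDS alone at days 0, 1 and 5. Between days 1 and 3 the basal list had 8 higher and 1 lower with Topsym (median 0.60), and 3 higher and 8 lower in SDS alone (median -0.66). The part of these markers in the result was not tested.

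**Figure D5:**
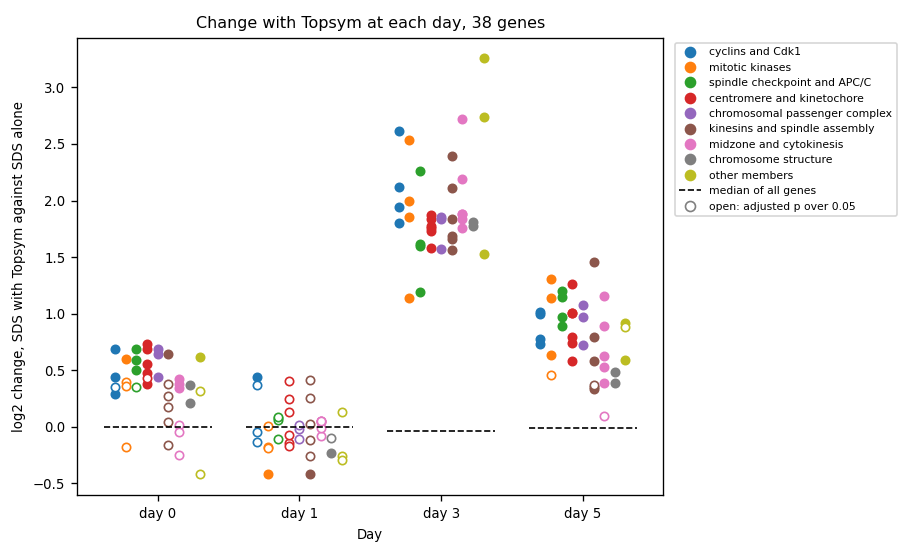
Log2 change with Topsym against SDS alone at days 0, 1, 3 and 5 for each of the 38 genes, spread sideways and coloured by role; open points have an adjusted p over 0.05, and dashed lines are the median of all genes. At day 3 all 38 points lie above 1, from 1.14 to 3.26, and at day 1 they scatter around 0.

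Between days 3 and 5 the change of the members was smaller with Topsym than in SDS alone. With Topsym 28 members rose and 2 fell in this interval (backgrounds 27.1% and 35.1%; median 0.57 against -0.13 over all genes). In SDS alone all 38 rose, beside 28.9% of all genes, with a median of 1.80 against -0.07. Both day 5 libraries of SDS alone were above both day 3 libraries for all 38, as for 37% of all genes. The difference in change was lower with Topsym in 34 members and higher in 0 (backgrounds 18.4% and 19%), with a median of -1.13 against 0.01; the 4 members without a call were Bub1b, Cdc20, Cenpa and Kif2c. The counts within the Topsym arm depend on the scaling. Scaling by library totals moved the median of all genes by -0.48 log2 with Topsym and by -0.25 in SDS alone between days 3 and 5, and the members' counts with Topsym became 12 higher and 7 lower. The median of the members was then 0.07, against -0.61 over all genes, since this scaling moves every gene of a library alike. In SDS alone the count stayed at 38. With that scaling the difference in change was called lower in all 38 members, Bub1b, Cdc20, Cenpa and Kif2c among them. Its median was -1.37, against -0.22 over all genes.

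With Topsym the largest rises between days 3 and 5 were those of Cdca3, an APC/C substrate linked to mitotic entry, with 3532 and 3323 normalised reads at day 5 against 1171 and 1195 at day 3 (log2 1.53, SE 0.10, limma adjusted p = 1.69e-09), of Cenpa (log2 1.36, limma adjusted p = 2.39e-09) and of Birc5 (log2 1.34, limma adjusted p = 3.10e-08). All 3 passenger members and all 6 centromere and kinetochore members were called higher, and 1 of the 6 genes of the midzone and cytokinesis was, while with scaling by library totals 2, 2 and 0 were higher and 4 of the 6 midzone and cytokinesis genes lower. Cip2a had 553 and 543 at day 5 against 661 and 735 at day 3 (log2 -0.35, SE 0.14, limma adjusted p = 0.0394), a fall whose call was lost without any 1 of the 4 libraries, at adjusted p of 0.0586 to 0.223. Anln fell, to 1888 and 1748 at day 5 against 2192 and 2175 at day 3 (log2 -0.27, SE 0.07, limma adjusted p = 0.00329). For Mki67 (0.40 log2) and Ccnb1 (0.45 log2) the direction turned with scaling by library totals, to -0.10 and -0.05, neither with a call, and Top2a and Cdk1 lost theirs. The Ccnb1 call was also lost without the second library of day 5 or of day 3, at adjusted p of 0.0556 to 0.0806. In SDS alone Birc5 rose most (log2 2.23, SE 0.12, limma adjusted p = 3.57e-11). Bub1 had 324 and 295 at day 5 of SDS alone against 66.6 and 66.1 at day 3 (log2 2.20, SE 0.23, limma adjusted p = 2.85e-07), and Cdca3 1821 and 1811 at day 5 against 423 and 398 at day 3 (log2 2.14, SE 0.10, limma adjusted p = 1.53e-11). Ttk rose least, by 0.62 log2.

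Against day 0, all 38 members were higher at day 5 with Topsym (background 32.8%; median 1.63 against -0.08) and 34 were higher in SDS alone, with 0 lower (background 30.7%; median 1.32 against -0.09). Scaling by library totals moved the median of all genes by -0.57 with Topsym and -0.33 in SDS alone, and 35 members with Topsym and 33 in SDS alone were then higher. Cdc20 led in both arms, at 3.14 log2 with Topsym and 2.35 in SDS alone, followed by Ccnb1 at 2.97 with Topsym and 2.31 in SDS alone and Plk1 at 2.62 with Topsym and 2.07 in SDS alone. In SDS alone the 4 members without a call were Depdc1a, Kif23, Spc25 and Ttk, between 0.08 and 0.75 log2. Basal keratinocyte markers summed to 1259898 to 1321486 at day 5 with Topsym, against 336036.5 to 336345 at day 0. In SDS alone they summed to 874258.5 to 921892 at day 5, against 313491 to 321167 at day 0. Fibroblast markers summed to 8868 to 8955 at day 5 with Topsym, against 420555 to 427884 at day 0. In SDS alone these summed to 16772 to 16923, against 302931 to 311843. The part of these markers in the result was not tested.

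At day 5 the libraries with Topsym were above those of SDS alone without overlap for all 38 members and for 31.7% of all genes, and 34 were called higher, against 22.6% of all genes (median 0.80 log2 against -0.01). With scaling by library totals, which moved the median of all genes by -0.23, 29 were called. Kif2c, a kinesin that takes microtubules apart at centromeres, had 938 and 968 normalised reads with Topsym, against 374 and 320.3 in SDS alone (log2 1.46, SE 0.13, limma adjusted p = 2.12e-07). Aurka, the kinase of the spindle poles, had 1357 and 1257 with Topsym, against 541 and 517 in SDS alone (log2 1.30, SE 0.15, limma adjusted p = 3.83e-06). Cenpa, whose values are above, came next (log2 1.27, SE 0.09, limma adjusted p = 2.42e-08). The 4 members without a call were Bub1, Depdc1a, Hmmr and Kif20a. The Mki67 change, 0.38 log2, lost its call with scaling by library totals, at an adjusted p of 0.0659, and with only the libraries compared, at 0.0568. Basal keratinocyte markers summed to 1259898 to 1321486 with Topsym against 874258 to 921892 in SDS alone, and 3 of the 12 were higher and 7 lower (median -0.24 log2): at this day the sum and the median of that list point in opposite directions. Suprabasal and stress keratinocyte markers summed to 2315436 to 2347709 with Topsym against 1608456 to 1696578 in SDS alone. Fibroblast markers summed to 8868 to 8955 with Topsym against 16772 to 16923 in SDS alone, and neutrophil markers to 36338 to 36383 with Topsym against 261917 to 271464 in SDS alone. Between days 3 and 5 of SDS alone, 10 basal markers of 12 were higher and 2 lower, with a median of 1.12 log2. With Topsym 3 were higher and 9 lower in that interval. Their sum with Topsym nevertheless rose, from 635112 to 645553 at day 3 up to 1259898 to 1321486 at day 5. All 8 fibroblast, endothelial, adipocyte and macrophage markers of each list, apart from 1 higher fibroblast marker in each arm, were lower at day 5 than at day 3 in both arms. The part of these markers in the result was not tested.

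At day 0 the arms already differed: 22 members were higher with Topsym and 0 lower, against 10.8% and 11.2% of all genes, with a median of 0.38 log2 against 0.00. The count was 14 without the first, or without the second, day 0 library with Topsym. Cenpe, a kinesin of the kinetochore, had 315 and 293 normalised reads with Topsym, against 190.3 and 176 in SDS alone (log2 0.73, SE 0.13, limma adjusted p = 0.00047). Aurkb, the kinase of the passenger complex, had 347 and 393 with Topsym, against 216 and 241 in SDS alone (log2 0.69, SE 0.12, limma adjusted p = 0.000575), and Ccnb2 changed by 0.69. The libraries of the arms did not overlap in these 3 genes. Several marker lists differed between the arms at day 0 as well. Hair matrix and shaft markers summed to 12407 to 12509.9 with Topsym against 657 in SDS alone, and 6 of 9 tested were higher (median 4.55 log2). Basal markers summed to 336036 to 336345 with Topsym against 313491 to 321167 in SDS alone, with 3 higher and 2 lower. Skeletal muscle markers summed to 128870 to 131839 with Topsym against 363615 to 368139 in SDS alone, and sebaceous gland markers to 15548 to 16092.5 against 53544 to 54360. Macrophage markers summed to 57050 to 57599 with Topsym against 25438 to 25867 in SDS alone, and fibroblast markers to 420555 to 427884 against 302931 to 311843. The part of any of these markers in the result was not tested.

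At day 1 the arms were close. Of the 38 members 1 was called higher and 3 lower with Topsym, against 5.51% and 4.29% of all genes, with a median of -0.01 log2 against 0.00. Ccnb2 was the higher one (log2 0.44, SE 0.13, limma adjusted p = 0.0353). Kif4, a chromosome-bound kinesin, had 200.4 and 233 normalised reads with Topsym, against 274 and 306 in SDS alone (log2 -0.42, SE 0.12, limma adjusted p = 0.0293). Ttk had 187 and 213 with Topsym, against 254 and 279 in SDS alone (log2 -0.41, SE 0.12, limma adjusted p = 0.0358), and Mki67 changed by -0.23 (limma adjusted p = 0.027). Each of these 4 calls was lost with only the libraries compared, where the counts were 0 and 0, and without at least 3 of the 4 libraries in turn. Leaving out 1 library gave 0 to 1 members higher and 0 to 1 lower.

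The wider pathway was read from lists of other genes. Of 66 other mitosis genes, 49 were lower and 1 higher at day 1 than at day 0 with Topsym, and 31 lower and 1 higher in SDS alone. Among all genes 20.5% were lower and 20.3% higher with Topsym, and 13.5% and 12.8% in SDS alone. Kntc1, a kinetochore component that recruits dynein, fell most in both arms, by 2.43 log2 with Topsym and by 1.98 in SDS alone. Between days 1 and 3, 62 of the 66 were higher and 1 lower with Topsym, beside 22.1% and 22.9% of all genes. In SDS alone 17 were higher and 16 lower, beside 23.6% and 18.6%, so these counts were not far from the shares of all genes. Between days 3 and 5, 36 of the 66 were higher and 6 lower with Topsym, beside 27.1% and 35.1% of all genes. In SDS alone 63 were higher and 1 lower, beside 28.9% and 34.5%. With Topsym against SDS alone at day 3, 64 were called higher and 2 lower (median 1.56 log2) and 44 and 0 at day 5 (median 0.65). The shares of all genes were 20.8% higher and 22.9% lower at day 3, and 22.6% and 24.2% at day 5. The 2 lower at day 3 were Pttg1, securin, at -0.45, and Zwint, a kinetochore scaffold protein, at -0.30.

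Genes of DNA replication and G1/S, which act before mitosis, were lower at day 1 in both arms. At day 1 against day 0, 36 of 38 were lower with Topsym (median -1.51 log2) and 34 in SDS alone (median -1.02), and none was higher. Of all genes 20.5% were lower with Topsym and 13.5% in SDS alone. Between days 1 and 3, 37 were higher and 0 lower with Topsym (median 1.93), and 28 were higher and 1 lower in SDS alone (median 0.87), beside 9 higher and 12 lower among the mitosis genes. The difference between the lists was not tested. Of all genes 22.1% were higher with Topsym and 23.6% in SDS alone between days 1 and 3. Mcm2, a subunit of the replicative helicase, had 1628 and 1647 normalised reads at day 3 with Topsym against 312 and 306 at day 1, and 785 and 815 at day 3 of SDS alone against 321 and 384 at day 1. It rose by 2.40 with Topsym and 1.18 in SDS alone, with no overlap between the days in either arm. Pcna, the sliding clamp, rose by 1.19 with Topsym and 0.47 in SDS alone. Between days 3 and 5, 15 of the replication and G1/S genes were higher and 0 lower with Topsym (median 0.23), and 36 and 0 in SDS alone (median 0.90). Of all genes 27.1% were higher there with Topsym and 28.9% in SDS alone. With Topsym against SDS alone at day 3, 33 were called higher and 0 lower (median 0.99), and 13 and 1 at day 5 (median 0.23). The shares of all genes called higher were 20.8% at day 3 and 22.6% at day 5.

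Of the factors known to act on these promoters, Foxm1 had its lowest group mean at day 1 with Topsym and its highest at day 5 with Topsym. With Topsym it had 547 and 483 normalised reads at day 0, 182 and 204 at day 1, 732 and 734 at day 3 and 1291 and 1275 at day 5. In SDS alone it had 391 and 406 normalised reads at day 0, 282 and 248 at day 1, 228 and 268 at day 3 and 1077 and 853 at day 5. Foxm1 fell at day 1 in both arms, by 1.41 log2 with Topsym and 0.59 in SDS alone, and at day 3 it was higher with Topsym (log2 1.56, SE 0.12, limma adjusted p = 1.97e-08). Mybl2, which encodes B-Myb, had another course. With Topsym Mybl2 had 167 and 176 normalised reads at day 0, 51.5 and 39.4 at day 1, 802 and 863 at day 3 and 833 and 655 at day 5. In SDS alone Mybl2 had 133 and 136 normalised reads at day 0, 42.7 and 57.9 at day 1, 283 and 269 at day 3 and 727 and 764 at day 5. Mybl2 thus rose between days 1 and 3 in SDS alone (log2 2.45, SE 0.17, limma adjusted p = 5.74e-09), where Foxm1 had no call (log2 -0.10, limma adjusted p = 0.575), and with Topsym it rose by 4.18. At day 5 the arms overlapped in Mybl2 (log2 -0.01, limma adjusted p = 0.975). E2f1, a factor of G1/S genes, fell at day 1 by 2.04 with Topsym and 1.26 in SDS alone, and stood at 327 and 312 at day 3 with Topsym against 236 and 209.9 in SDS alone (log2 0.52, limma adjusted p = 0.00397). Over the 21 regulators tested, 11 were higher and 4 lower with Topsym at day 3, beside 20.8% higher and 22.9% lower among all genes. At day 5 the counts were 8 higher and 5 lower, beside 22.6% and 24.2%, so the lower ones were near the share of all genes at both days.

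The inhibitor Cdkn1a, p21, which blocks cyclin-dependent kinases, was also followed. At day 1 it had 12078 and 11872 normalised reads with Topsym, against 7026 and 6966 at day 0 (log2 0.78, SE 0.04, limma adjusted p = 1.10e-10). In SDS alone it had 10329.6 and 10347 at day 1, against 6938 and 7050.5 at day 0 (log2 0.56, SE 0.04, limma adjusted p = 1.34e-08). At day 3 it had 10195 and 10090.5 with Topsym against 8039.8 and 8042 in SDS alone (log2 0.33, SE 0.04, limma adjusted p = 2.27e-06), and at day 5 13265 and 13362 with Topsym against 7533 and 7093 in SDS alone (log2 0.86, SE 0.04, limma adjusted p = 5.28e-11). Cdkn1a was therefore higher with Topsym at days 3 and 5, when the mitosis genes were higher too, without overlap between the arms. Over 15 tested inhibitors and p53 targets, 5 were higher and 7 lower with Topsym at day 3, beside 20.8% higher and 22.9% lower among all genes. At day 5 the counts were 6 higher and 4 lower, beside 22.6% and 24.2%.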

How the data were processed

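Whole-skin RNA of 16 libraries in 8 groups of 2 was given as 1 table of read counts per gene divided by a size factor, a signal deposited by the authors. The submitters' processing notes name Trim Galore 0.6.7, HISAT2 2.2.1, featureCounts 2.0.3, DESeq2 2.11.40.8 and the mm10 build, without settings. The low values of each column are whole multiples of 1 step, and dividing by that step gave 15199656 to 32066246 whole reads per library, with 100% of values up to 2000 reads whole within 1e-04. Values were analysed as log2(value + 1) for the 19189 genes with at least 10 in at least 2 libraries, with limma 3.58.1 in R 4.3.3, 1 mean per group, 8 residual degrees of freedom and p adjusted by Benjamini-Hochberg over those genes, called below 0.05. edgeR 4.0.16 and DESeq2 1.42.0 were run on the recovered reads as alternatives and called 5860 and 5731 genes at day 1 against day 0 of SDS alone, against 5037 with limma. On simulated data for that comparison over 19189 genes, limma found 43 of 67 genes set to change by 1.5-fold, 54 of 67 at 2-fold and 64 of 66 at 4-fold, with 3.59% of its calls false. The genes set to change had a day 0 mean in SDS alone well above the filter value of 10. These rates therefore do not cover low genes such as Depdc1a. Genes followed in every library were 10 members, and per comparison up to 3 called members with the largest rise and 3 with the largest fall were named. Members, roles and lists were chosen with earlier results of these data known. Promoter windows are those of RefSeq (GRCm38.p6), and gene positions and exon overlaps come from GENCODE M21 (mm10).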

Additional observations from a re-analysis of the deposited data

Results flagged for a closer look

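The change between days was tested for a difference between the arms, and 3 intervals gave one. From day 0 to day 1 the change was lower with Topsym in 14 members, led by Cdca3 (-0.91 log2), Plk1 (-0.77) and Ndc80 (-0.76). Of these, Plk1 lost its call without any of 3 single libraries and Ndc80 without any of 7 of the 8, as given above. From day 1 to day 3 the change was higher with Topsym in 38 members, led by Depdc1a at 3.52 log2, which changed by 2.19 with Topsym and -1.33 in SDS alone. Ect2 followed at 2.73, with 2.32 with Topsym and -0.41 in SDS alone, and Cip2a at 2.61, with 1.99 with Topsym and -0.62 in SDS alone. From day 3 to day 5 the change was lower with Topsym in 34 members, led by Depdc1a at -2.38, with -0.31 with Topsym and 2.07 in SDS alone. Cip2a followed at -2.15, with -0.35 with Topsym and 1.80 in SDS alone, and Bub1 at -2.08, with 0.12 with Topsym and 2.20 in SDS alone. The Depdc1a difference of this interval lost its call without the first day 3 library with Topsym, the second day 5 library of SDS alone or the first day 3 library of SDS alone, at limma adjusted p of 0.0561, 0.0606 and 0.0713. Depdc1a is the lowest member per kilobase at day 5 with Topsym and had 9.99 to 44.5 normalised reads at days 1 and 3 of SDS alone.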

How the results depend on the processing

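Each result was recomputed with pseudocount 4, without the filter, with TMM factors, with a robust variance prior, with only the libraries compared, with the replicate number as a block, with edgeR and DESeq2 on recovered reads, without each library in turn and, chosen after seeing the data, with scaling by library totals and without the day 5 libraries. Counts of 38 from day 1 to day 3 with Topsym, from day 3 to day 5 in SDS alone and at day 3 between the arms were 38 under every one of these that applied. A further demand for a log2 change of at least 1 left, at day 1 against day 0, 15 lower with Topsym and 3 lower and 0 higher in SDS alone, and 0 lower for the difference between arms. With that demand day 3 against day 1 of SDS alone had 0 higher and 1 lower, day 3 against day 0 had 21 higher with Topsym and 0 higher and 3 lower in SDS alone, day 5 against day 3 with Topsym had 7 higher and 0 lower, and the difference between arms there had 22 lower. Topsym against none then gave 0 at day 0, 0 and 0 at day 1 and 11 at day 5. With scaling by library totals, day 5 against day 3 with Topsym had 12 higher and 7 lower, and Mki67 and Ccnb1 turned there to -0.10 and -0.054 log2 (limma adjusted p = 0.192 and 0.753). Day 3 against day 0 of SDS alone had 1 higher with that scaling and with no filter. At day 1 Topsym against none had 0 higher with no filter, 0 higher and 0 lower with only the libraries compared, and 2 higher with DESeq2 or without the day 5 libraries. The cause of these changes was not tested. Leaving out 1 library gave, at day 1 against day 0, 21 to 23 lower with Topsym, 15 to 16 lower and 0 to 3 higher in SDS alone, and 9 to 12 lower for the difference. At day 3 against day 1 of SDS alone it gave 5 to 8 higher and 9 to 10 lower, and at day 3 against day 0, 35 higher with Topsym and 1 to 2 higher and 19 to 21 lower in SDS alone. At day 5 against day 3 with Topsym it gave 26 to 29 higher and 1 lower, and 30 to 33 lower for the difference, and at day 5 against day 0, 37 to 38 higher with Topsym and 34 in SDS alone. For Topsym against none it gave 14 to 17 higher at day 0, 0 to 1 higher and 0 to 1 lower at day 1, and 31 to 34 higher at day 5. Replicate numbers do not pair the libraries: deviations of same-numbered libraries correlated at -0.149 to 0.168 over 28 pairs of groups, 2 of them over 0.1. With the replicate block 24 members were lower at day 1 against day 0 with Topsym, against 25 without it, 11 against 12 were lower at day 3 against day 1 of SDS alone, and 16 against 14 were lower in the day 1 difference. Over 168 values of named members, 65 lost their call under at least 1 setting and 2 turned direction. These settings include the demand for a log2 change of at least 1, under which every smaller change loses its call by definition. With 2 libraries a group, small changes are missed: the simulation, which set no low genes to change, found 43 of 67 genes changed 1.5-fold.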
